A study of Mus musculus with 2 samples.

Results

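The genes described here were 37 mouse genes of cholesterol and fatty acid metabolism, given as a list of symbols with no threshold on any value of the arrays. They fall into 18 genes of sterol synthesis, 9 of fatty acid synthesis, 7 regulators and 3 genes of sterol efflux and transport, out of 19505 genes that the arrays name. A probe set was named for 32 of them. The other 5, namely Acat2 and Tm7sf2 of sterol synthesis, Scd2 of fatty acid synthesis and the regulators Srebf1 and Nr1h2, were not analysed here for expression.

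The cells profiled were endogenous CD8+ T cells, those of the host and not of the graft, from melanoma-bearing mice given chemotherapy and adoptive T-cell therapy, with antibody depletion of CD4+ cells (CTXpre/CD4post) or without it (CTXpre). All mice were female C57BL/6 of 6 to 8 weeks, carried 200000 B16F10 melanoma cells, received cyclophosphamide at 300 mg/kg on day 3, then 2000000 Thy1.1+ Pmel-1 T cells, which carry a transgenic receptor against a melanocyte antigen, on day 5, and IL-2 at 10000 IU for 3 days. The CTXpre/CD4post mice were given in addition 200 µg of the anti-CD4 antibody GK1.5 on days 10, 17 and 24, and the CTXpre mice were not. On day 25, Thy1.1-negative CD8+ cells were sorted from the inguinal lymph nodes and spleens of 5 mice, the cells of the 5 mice were pooled before RNA extraction, and the RNA of each pool was hybridised to 1 Clariom S mouse array. There was thus 1 array per group and no replicate, so that no difference given here has an error or a test, and the spread between mice within a pool cannot be seen.

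Sterols and fatty acids are both built from acetyl-CoA, and a dividing lymphocyte needs them for new membrane. The sterol route runs through mevalonate and isoprenoids to squalene, which is closed into a ring and trimmed to cholesterol, while fatty acids are made by acetyl-CoA carboxylase and fatty acid synthase and then elongated and desaturated. SREBP transcription factors switch on both routes when Scap carries them out of the endoplasmic reticulum, Insig proteins hold Scap back when sterols are plentiful, and the oxysterol-sensing LXR receptors drive sterol efflux.

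The bases just upstream of 5 genes are shown because Hmgcs1 was the only gene, of the 29 with a RefSeq promoter, whose upstream 250 bases held the SREBP element, Nsdhl and Fasn had the highest differences of the sterol and fatty acid synthesis genes, and Idi1 and Fads2 had the lowest. Each line gives the 150 bases before the start of the gene in RefSeq, 5′ to 3′ along the gene's own strand, in build GRCm38.p6. They lie at chr13:119690201-119690350 (plus strand) for Hmgcs1, chrX:72918371-72918520 (plus) for Nsdhl, chr11:120824548-120824697 (minus) for Fasn, chr13:8885456-8885605 (plus) for Idi1 and chr19:10101504-10101653 (minus) for Fads2. Capitals mark matches on either strand to the SREBP element TCACNCCAC, the NF-Y box CCAAT or the Sp1 box GGGCGG, where N is any base, and NF-Y and Sp1 are general factors known to act beside SREBP.
Hmgcs1: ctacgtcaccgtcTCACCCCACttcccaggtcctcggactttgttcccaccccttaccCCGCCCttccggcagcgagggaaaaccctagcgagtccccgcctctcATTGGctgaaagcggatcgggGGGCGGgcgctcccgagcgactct
Nsdhl: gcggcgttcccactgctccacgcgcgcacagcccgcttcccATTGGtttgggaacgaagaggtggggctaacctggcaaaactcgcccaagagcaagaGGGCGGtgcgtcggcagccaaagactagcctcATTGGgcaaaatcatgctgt
Fasn: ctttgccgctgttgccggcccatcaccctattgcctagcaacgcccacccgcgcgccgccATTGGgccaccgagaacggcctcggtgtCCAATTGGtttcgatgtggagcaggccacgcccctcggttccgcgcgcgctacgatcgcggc
Idi1: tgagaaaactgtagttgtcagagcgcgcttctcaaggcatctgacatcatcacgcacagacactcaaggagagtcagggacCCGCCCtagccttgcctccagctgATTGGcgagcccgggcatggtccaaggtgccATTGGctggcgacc
Fads2: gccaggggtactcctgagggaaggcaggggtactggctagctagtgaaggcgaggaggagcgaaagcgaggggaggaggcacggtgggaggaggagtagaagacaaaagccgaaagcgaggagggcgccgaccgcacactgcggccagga

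Within these 150 bases Hmgcs1 held 1 SREBP element, 1 NF-Y box and 2 Sp1 boxes, Nsdhl and Idi1 each held 2 NF-Y boxes and 1 Sp1 box, and Fasn held 3 NF-Y boxes, of which a pair overlap by 2 bases. Fads2 held no match within them, and its Sp1 box lay farther upstream, 186 to 181 bases before the start. Nsdhl and Idi1, with the highest and lowest differences of the measured sterol synthesis genes, carried the same counts of the same letters.

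RefSeq promoters were matched to 29 of the 37 genes, and any start of a gene could supply the match. The others, namely Fdps, Fdft1, Sqle, Scd1, Scd2, Fads1, Abcg1 and Stard4, had no entry in the promoter table and were not searched. The SREBP element lay in 1 of the 29 (3.45%), that of Hmgcs1, 137 to 129 bases before the start, against 1.22% of all 27025 genes in the promoter table. The NF-Y box lay in 20 of 29 (69.0%), against 37.5% of all genes and 40.0% of the genes above background on the arrays. The Sp1 box lay in 22 of 29 (75.9%), against 35.4% of all genes and 59.1% of those above background. Sterol synthesis genes carried most of these matches, with the NF-Y box in 14 of 15 and the Sp1 box in 14 of 15, whereas each box lay in 2 of 6 fatty acid synthesis genes. Such matches describe the letters alone, and a gene without one says nothing about the factor.

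**Figure D1:**
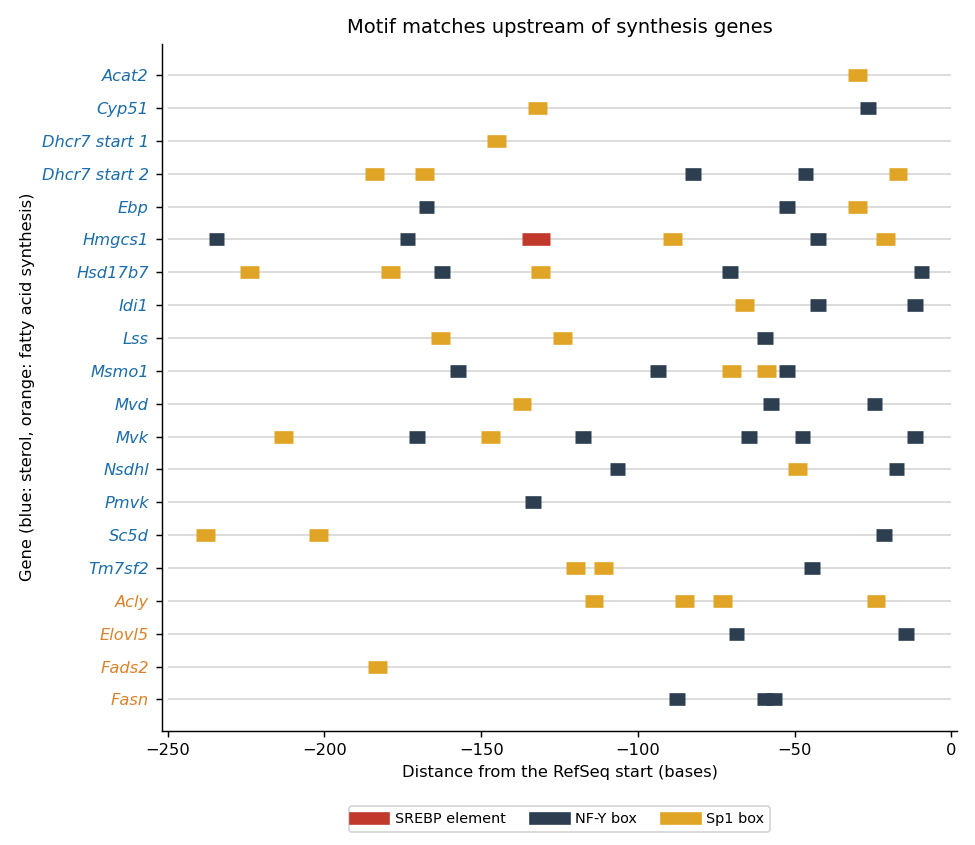
Motif matches within 250 bases upstream of the RefSeq start of synthesis genes, 1 row per start with at least 1 match, with distance from the start in bases on the horizontal axis and coloured blocks for the SREBP element, NF-Y box and Sp1 box. The single SREBP element is that of Hmgcs1, 137 to 129 bases before the start, and NF-Y boxes recur across the sterol synthesis rows.

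The arrays gave levels on a log2 scale with medians of 5.15 on both, and their 22206 probe sets gave a Pearson r of 0.988, a value taken across probe sets that do not stand in for replicates. Receptors of smell, pheromones and taste, whose probe sets should read little but background in lymphocytes, set the background bound, at 4.36 on the CTXpre/CD4post array and 4.35 on the CTXpre array, and 12861 genes were above it on at least 1 array. Differences are CTXpre/CD4post minus CTXpre in log2 units. Over those 12861 genes the median difference was 0.01 and the central 95% lay between -0.66 and 0.63, while the central 95% of the receptor probe sets spanned -0.58 to 0.66. The CD8 T cell markers were high on both arrays, with Cd8a at 11.72 and 11.47, Cd8b1 at 11.80 and 11.70 and Cd3e at 11.62 and 11.62 on the CTXpre/CD4post and CTXpre arrays. Markers of other cells were nevertheless measurable, with no measured marker below background on both arrays. Those of MHC class II, dendritic and myeloid cells had lower levels on the CTXpre/CD4post array in 5 of 5, 8 of 8 and 7 of 8 measured genes, with median differences of -0.78, -0.69 and -0.72. Cd4 had a level of 5.98 on the CTXpre/CD4post array and 7.55 on the CTXpre array, a difference of -1.57, and Gpr83, a gene of regulatory T cells, differed by -0.93, while Zbtb7b, a factor of the CD4 lineage, was at 6.17 on the CTXpre/CD4post array and 5.81 on the CTXpre array (0.36).

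Set against this spread, the lipid genes differed between the arrays about as much as genes in general. All 32 measured genes were above background on at least 1 array and 30 were on both. Their median difference was 0.02, beside 0.01 over all genes above background, and 17 of 32 were above 0, beside 51.6% of all genes. Within 1.2-fold lay 22 genes, 9 lay between 1.2-fold and 1.5-fold, and 1 gene, Stard4, was past 1.5-fold and outside the central 95%. That 1 gene was higher on the CTXpre/CD4post array, where 3.08% of all genes were called 1.5-fold higher, and none was 1.5-fold lower, beside 3.37% of all genes. At 1.2-fold, 3 genes were higher and 7 lower out of 32, beside 15.4% and 15.0% of all genes. In RNA from sorted bulk cells, fewer cells of a type and less RNA per cell cannot be told apart.

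**Figure D2:**
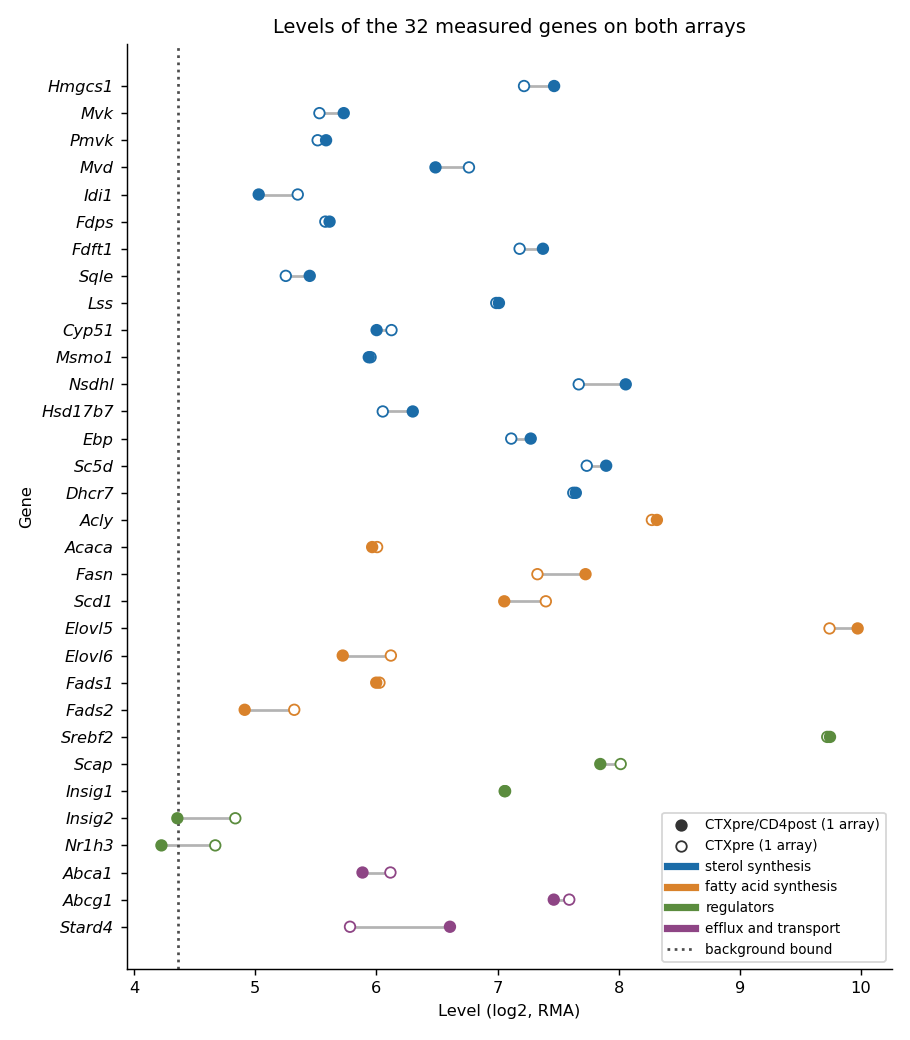
Levels (log2, RMA) of the 32 measured genes, with filled points for the CTXpre/CD4post array, open points for the CTXpre array (1 array each) and a dotted line at the background bound of 4.36. The paired points lie close together for most genes, the widest pair is Stard4 at 6.61 on the CTXpre/CD4post array and 5.78 on the CTXpre array, and the filled points of Insig2 and Nr1h3 lie at or below the bound.

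Sterol synthesis was carried by 16 measured enzymes, all above background on both arrays. Of these, 12 had a level above that of the CTXpre array (75.0%, beside 51.6% of all genes), with a median difference of 0.11. None reached 1.5-fold, beside 3.08% of all genes higher and 3.37% lower, and the whole list lay between -0.32 and 0.39. The highest was Nsdhl, the dehydrogenase that helps strip the methyl groups from the sterol ring, with a level of 8.06 on the CTXpre/CD4post array and 7.67 on the CTXpre array, a 1.31-fold difference. It was the 1 sterol gene of 16 past 1.2-fold upward, and 2 were past it downward, beside 15.4% and 15.0% of all genes. The upstream bases of Nsdhl are among those printed above.

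Among the enzymes of the early, mevalonate part, Hmgcs1, the cytosolic synthase that supplies the route, had a level of 7.47 on the CTXpre/CD4post array and 7.22 on the CTXpre array (difference 0.25). Mevalonate kinase, encoded by Mvk, had levels of 5.73 and 5.53 in the same order (0.20). The kinase Pmvk that acts after it and Fdps, the farnesyl diphosphate synthase, differed by 0.07 and 0.03. Both genes past 1.2-fold downward belong to this stretch. Mvd, the decarboxylase that yields isopentenyl diphosphate, had a level of 6.49 on the CTXpre/CD4post array and 6.76 on the CTXpre array (1.21-fold lower), and Idi1, the isomerase of that product, 5.03 and 5.35 (1.25-fold lower). Neighbouring steps thus differed in sign. Fdft1, which joins farnesyl units into squalene, had levels of 7.37 on the CTXpre/CD4post array and 7.18 on the CTXpre array (0.19).

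From squalene onward, 7 of 9 enzymes had positive differences, with a median of 0.16. Up to squalene, 5 of 7 had positive differences, with a median of 0.07. Of all genes above background, 51.6% had positive differences. The division at squalene was made after the values were seen. Squalene epoxidase, encoded by Sqle and an oxygen-dependent step of the route, had a level of 5.45 on the CTXpre/CD4post array and 5.25 on the CTXpre array (0.20). Hsd17b7, a sterol ketone reductase, had levels of 6.30 on the CTXpre/CD4post array and 6.05 on the CTXpre array (0.25). The sterol isomerase Ebp and the desaturase Sc5d, which act late on the ring, differed by 0.16 each. Lanosterol synthase, encoded by Lss, and Dhcr7, the reductase that ends one arm of the route, differed by 0.02 each and Msmo1, a methylsterol oxidase, by -0.01. Cyp51, the lanosterol demethylase, was at 6.00 on the CTXpre/CD4post array and 6.12 on the CTXpre array (-0.12). No enzyme of this stretch other than Nsdhl was past 1.2-fold.

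**Figure D3:**
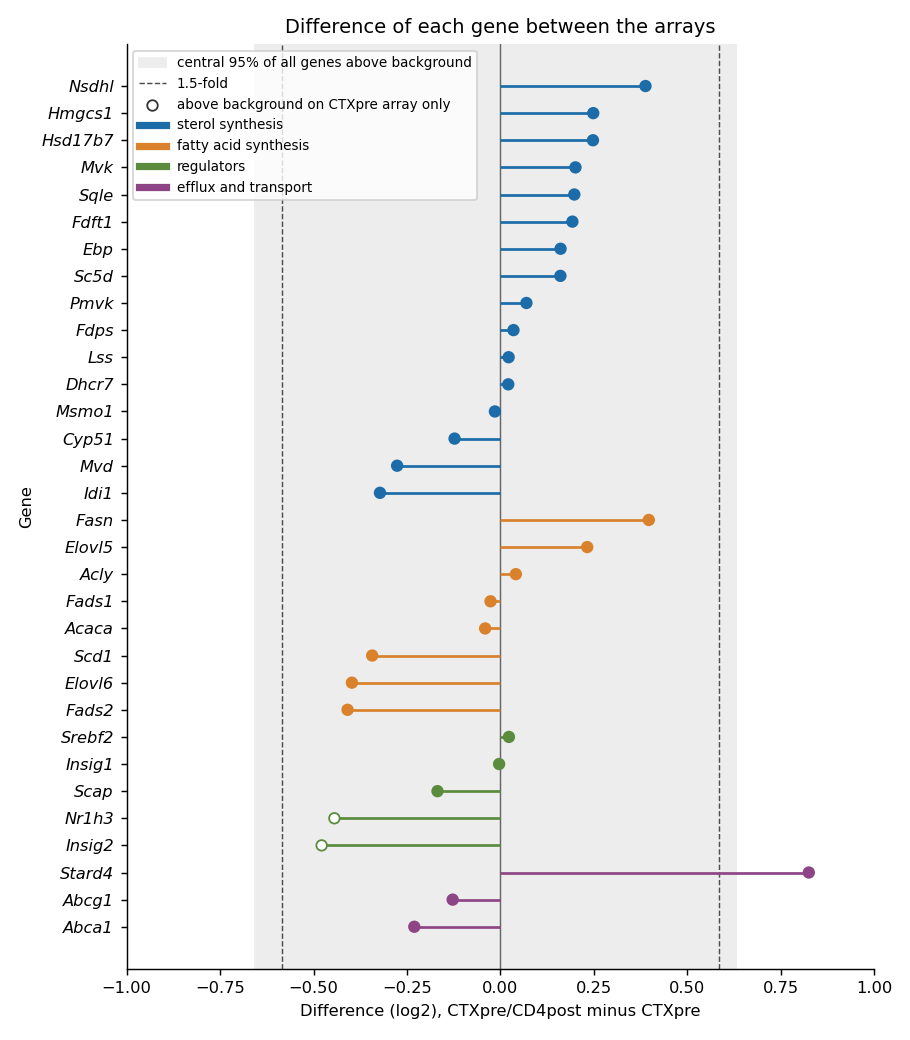
Difference (log2, CTXpre/CD4post minus CTXpre) of each of the 32 measured genes, grouped by role and ordered by size, with grey for the central 95% of all genes above background (-0.66 to 0.63), dashed lines at 1.5-fold and open points for genes above background on the CTXpre array only. Most sterol synthesis points lie right of 0, fatty acid synthesis points lie on both sides, and Stard4 alone lies outside the grey band.

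Fatty acid synthesis had differences of both signs. Of 8 measured enzymes 3 had positive differences, beside 51.6% of all genes, and the median was -0.03. The differences ran from -0.41 to 0.40 with none past 1.5-fold, beside 3.08% of all genes higher and 3.37% lower. At 1.2-fold, 1 was higher and 3 were lower, beside 15.4% and 15.0% of all genes. Fasn, the fatty acid synthase that makes palmitate, had a level of 7.73 on the CTXpre/CD4post array and 7.33 on the CTXpre array, a 1.32-fold difference, and was the 1 gene of the list past 1.2-fold upward. The enzymes that feed it were nearly equal on both arrays, with Acly, the citrate lyase that supplies acetyl-CoA, at 8.31 and 8.27 and Acaca, the carboxylase that makes malonyl-CoA, at 5.96 and 6.01 on the CTXpre/CD4post and CTXpre arrays.

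The genes past 1.2-fold downward in this list modify chains already made. Scd1, the stearoyl-CoA desaturase that introduces the first double bond, had a level of 7.05 on the CTXpre/CD4post array and 7.40 on the CTXpre array (1.27-fold lower). Fads2, the desaturase that starts the polyunsaturated route, had 4.91 and 5.32 in the same order (1.33-fold lower). Its companion Fads1 stood at 6.00 on the CTXpre/CD4post array and 6.02 on the CTXpre array. Thus 0 of 3 desaturases had a positive difference, beside 51.6% of all genes. The elongases parted. Elovl6, which extends palmitate, had a level of 5.72 on the CTXpre/CD4post array and 6.12 on the CTXpre array (1.32-fold lower), whereas Elovl5, which extends polyunsaturated chains, had 9.97 and 9.74 (1.17-fold higher). The grouping into desaturases and elongases was made after the values were seen.

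Among the regulators, Srebf2, the SREBP gene chiefly tied to sterol synthesis, had a level of 9.74 on the CTXpre/CD4post array and 9.72 on the CTXpre array. Insig1, itself a known SREBP target, was at 7.06 on both arrays. Both were thus nearly equal on the arrays, and their relation to the positive differences of 12 of 16 sterol enzymes was not tested. Scap, the escort of SREBP, was at 7.85 on the CTXpre/CD4post array and 8.02 on the CTXpre array (-0.17). The list of 5 had a median of -0.17 and 1 positive difference, beside 51.6% of all genes. It was that of Srebf2, whose sign turned under quantile normalization. Over the 3 regulators above background on both arrays the median was -0.0036, against -0.17 with the 2 dim genes counted. The 2 regulators past 1.2-fold were lower, beside 15.0% of all genes, and both were above background on the CTXpre array only. Insig2, the second retention protein, was at 4.36 on the CTXpre/CD4post array, just under the bound, and 4.84 on the CTXpre array, at least 1.39-fold lower. Nr1h3, which encodes an LXR receptor and is known for its role in macrophages, was not above background on the CTXpre/CD4post array, at 4.23, and was at 4.67 on the CTXpre array, at least 1.24-fold lower against the bound.

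Stard4, a carrier that moves cholesterol between membranes and a known SREBP target, had the largest difference of the 32 genes. Its level was 6.61 on the CTXpre/CD4post array and 5.78 on the CTXpre array, a difference of 0.82 or 1.77-fold, and it ranked 149 of 12861 genes from the highest, within the top 1.16%. With 32 added to the linear values, which damps differences of dim probe sets, the difference was 0.57 and fell short of 1.5-fold. Both efflux pumps had small negative differences. Abca1, which loads cholesterol onto lipid-poor particles, was at 5.88 on the CTXpre/CD4post array and 6.12 on the CTXpre array (1.17-fold lower), and Abcg1, which loads larger particles, at 7.46 and 7.59 (1.09-fold lower).

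**Figure D4:**
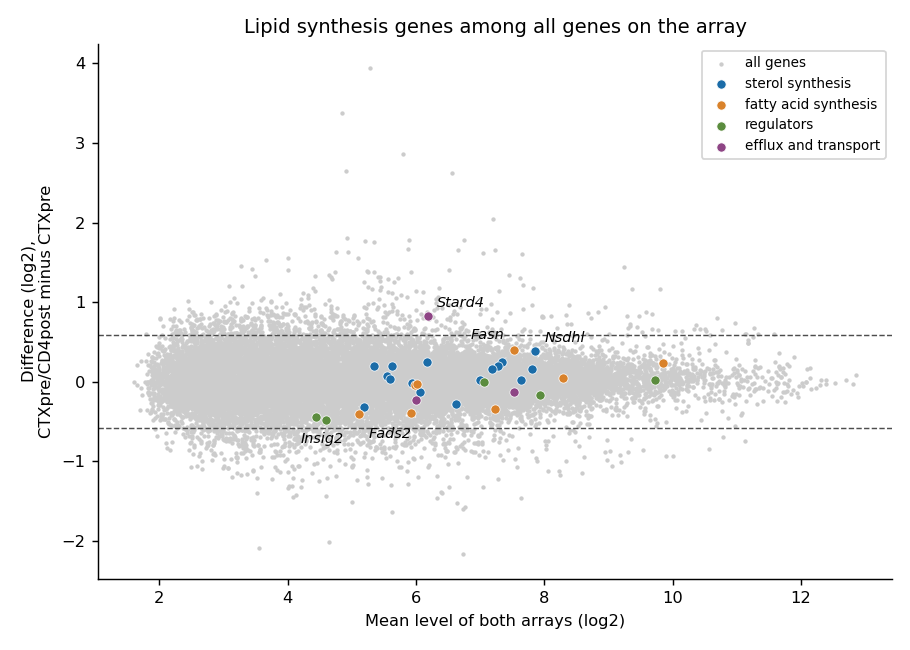
Difference (log2, CTXpre/CD4post minus CTXpre) against the mean level of both arrays (log2) for all genes in grey and the 32 measured lipid genes in colour, with dashed lines at 1.5-fold. The coloured points lie within the grey cloud, with Stard4 above the upper dashed line at 0.82 and no lipid gene below the lower one.

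Lists of related genes were read beside these. In the isoprenoid branch, which leaves the sterol route at farnesyl diphosphate, the median over 9 of 11 genes was -0.04. Beside 3.08% of all genes, 1 gene of this branch was 1.5-fold higher. This was Pggt1b, a subunit of the enzyme that attaches geranylgeranyl groups to small GTPases, with a level of 6.97 on the CTXpre/CD4post array and 6.39 on the CTXpre array (0.59). Pdss2, which builds the side chain of coenzyme Q, differed by 0.30, Fnta, a subunit of the prenyl transferases, by -0.24 and Rabggta, of the enzyme that prenylates Rab proteins, by -0.22. In the list of SREBP processing, which holds coat proteins, proteases and degradation factors, the median over 9 of 11 genes was 0.01. Its 1 gene past 1.5-fold was Sec23a, a coat protein of vesicles leaving the endoplasmic reticulum, with a level of 4.89 on the CTXpre/CD4post array and 5.66 on the CTXpre array (1.71-fold lower). Over all genes, 3.37% were 1.5-fold lower. Erlin1, Ufd1 and Rnf139, of the machinery that degrades membrane proteins of the endoplasmic reticulum, differed by -0.33, -0.23 and -0.22.

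Sterol uptake and storage had a median of -0.15 over 9 of 11 genes, of which 2 were above 0, beside 51.6% of all genes. None was past 1.5-fold, beside 3.08% of all genes higher and 3.37% lower. Lipa, the lysosomal lipase that frees cholesterol from its esters, was at 8.01 on the CTXpre/CD4post array and 8.36 on the CTXpre array (-0.34). Mylip, a ligase that removes lipoprotein receptors, differed by -0.33, the lipoprotein receptor Scarb1 by -0.32 and Lrp8, another receptor, by -0.22. Of the 4 genes of oxysterol synthesis, 2 were above background on neither array, and the median was -0.32 over the other 2 and 0.11 over all 4. Of those above background, Cyp27a1, which makes the side-chain-hydroxylated sterols that LXR senses, had a level of 5.99 on the CTXpre/CD4post array and 6.93 on the CTXpre array (1.92-fold lower). Hsd3b7, which acts on oxysterols on their way to bile acids, was at 5.14 and 4.84 in the same order (0.30). The myeloid and dendritic cell markers given above, which summed to 627 and 575 in linear units on the CTXpre/CD4post array, against 1174 and 952 on the CTXpre array, were lower together with Cyp27a1, Nr1h3 and Lipa, and their part in these differences was not tested.

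Fatty acid genes outside the main list had small positive differences for the most part. Of 15 further synthesis genes, 13 were above background, of which 11 were above 0, beside 51.6% of all genes. Their median was 0.09 and none was past 1.5-fold, beside 3.08% of all genes higher and 3.37% lower. Dgat1, which completes triglycerides, was at 5.16 on the CTXpre/CD4post array and 4.68 on the CTXpre array (0.48), and Elovl1, an elongase of very long chains, at 9.08 and 8.69 (0.40). Hacd3, a dehydratase of the elongation cycle, and Acsl5, which activates fatty acids, differed by 0.26 each. Fatty acid oxidation, the opposing route, had 9 of 10 measured genes above 0, beside 51.6% of all genes, and a median of 0.13. None was past 1.2-fold, beside 15.4% of all genes higher and 15.0% lower. Its highest gene, Acadvl, which opens the oxidation of very long chains, was at 7.82 on the CTXpre/CD4post array and 7.56 on the CTXpre array (0.26), and Cpt1a, the gate of entry to the mitochondrion, at 8.07 and 7.86 (0.20). Hadhb and Etfdh, which serve later steps, differed by 0.17 each.

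Proliferation genes stood beside the lipid genes as a measure of dividing cells. Of 10 listed genes 9 were measured, and all 9 had positive differences, beside 51.6% of all genes. Of these, 7 were 1.5-fold higher, beside 3.08% of all genes. Their median was 0.77 and their summed linear level was 2192 on the CTXpre/CD4post array and 1225 on the CTXpre array. Rrm2, a subunit of ribonucleotide reductase, was at 8.28 on the CTXpre/CD4post array and 7.07 on the CTXpre array (2.32-fold), and Mki67, a marker of cycling cells, at 9.42 and 8.48 (0.94). Ccna2 and Cdk1, a cyclin and a kinase of the cell cycle, differed by 1.14 and 1.12. The sterol synthesis median of 0.11 had the same sign and was smaller than that of the proliferation genes, and the part of dividing cells in it was not tested.

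**Figure D5:**
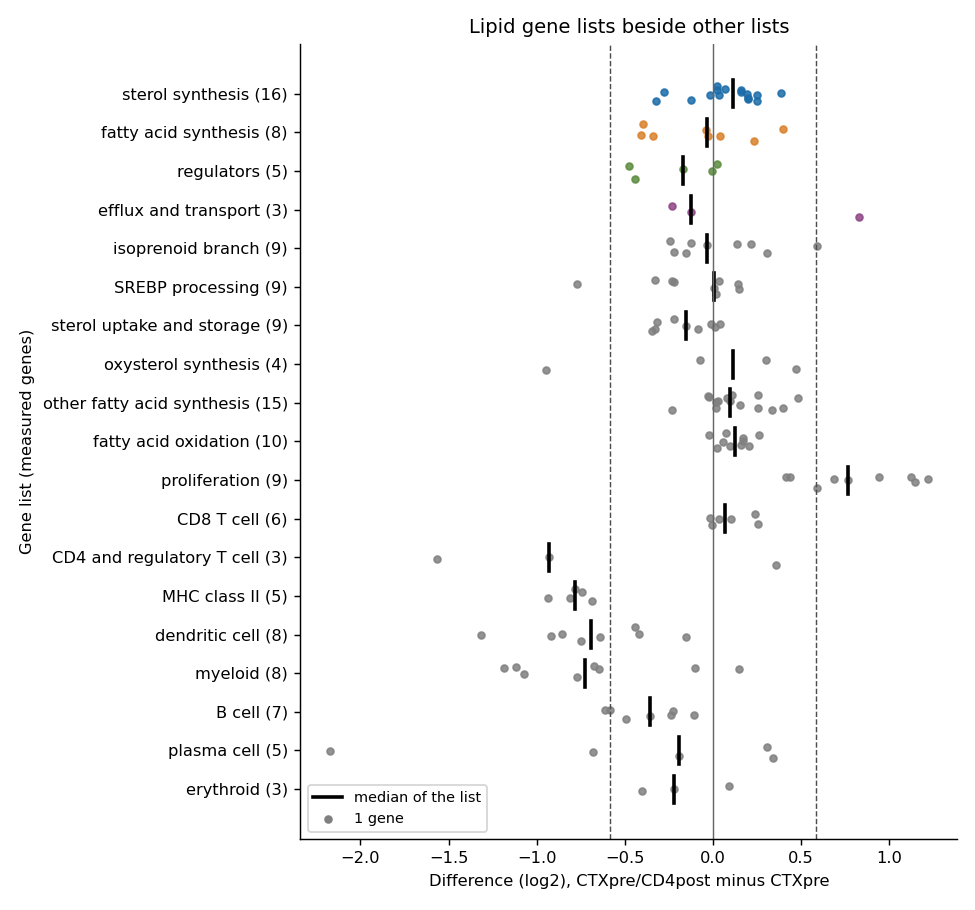
Difference (log2, CTXpre/CD4post minus CTXpre) of each measured gene in the lipid lists, the related pathway lists, the proliferation list and the cell type marker lists, 1 point per gene with a bar at the list's median and dashed lines at 1.5-fold. Counting also genes not above background, the medians of the lipid and related lists lie between -0.17 and 0.13 (oxysterol synthesis at 0.11, but at -0.32 over its 2 genes above background), that of proliferation at 0.77, and those of MHC class II, dendritic and myeloid markers between -0.78 and -0.69.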

How the data were processed

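Sorted cells of 5 mice per group were pooled, and their RNA was hybridised to Clariom S arrays, 1 per group. The deposited values are log2 levels that the authors made by robust multi-array averaging (RMA) with Affymetrix Power Tools, which subtracts background, quantile-normalizes and summarizes probe sets, so a global shift cannot be seen. Tool versions and the genome build were not given in the sources used here. Groups came from the treatment labels, and no column of sample values was left unused.

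Of 22206 probe sets, 19572 carried 1 symbol in the platform annotation, 0 carried several and 2634 are unnamed here. Comparison with RefSeq through Entrez identifiers changed 0 symbols. For 55 genes with several probe sets, none of them lipid genes, the one with the highest mean of both arrays was used. The background bound was the 95th percentile of 1450 receptor probe sets on each array. Where a gene was above it on 1 array only, the fold was taken against the bound. A single array per group allowed no test, and genes were called by size at 1.5-fold.

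All 37 genes are named. Of each related or proliferation list, up to 4 genes above background with the largest absolute difference are named, and of marker lists the defining genes and up to 3. The lipid genes and all lists were chosen with earlier results of these data known. Besides the lists in the report, B cell markers (7 of 8 measured) had a median of -0.35 with Blnk at -0.61, plasma cell markers (5 of 5, of which 3 were below 0 and 2 above) -0.19 with Jchain at -2.17 and Derl3 at 0.30, erythroid markers (3 of 6) -0.22, CD4 and regulatory T cell markers (3 of 4) -0.93 and CD8 T cell markers (6 of 7) 0.07. Motifs were searched on both strands in the RefSeq promoter table (GRCm38.p6). A planned comparison of protein sequences between paralogs was not run. Python 3.11.15 with pandas 2.3.3, numpy 2.4.6 and statsmodels 0.14.6 was used, and the script was tested on simulated data. Alternatives were centring, quantile normalization, removal of a lowess trend (fraction 0.3), 32 added to linear values, the bound at the 99th percentile, dim levels set to the bound, list means, means over probe sets and thresholds of 1.2-fold and 2-fold.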

Additional observations from a re-analysis of the deposited data

How the results depend on the processing

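No paired analysis was possible because each group had 1 array and no replicate number. Over the alternatives, 189 gene differences moved by less than the robust SD of all differences, 0.25, and 3 by more. Of 76 list values, 70 stayed within 0.25 for medians or within 1.5 times for counts. Part of this tally was fixed in advance. No lipid gene had several probe sets and all 32 were above background on at least 1 array. Taking means over probe sets or dropping the background bound could therefore change nothing. Centring shifted every difference by the same 0.01. At a 1.2-fold threshold the counts past it were 3 for sterol synthesis, 4 for fatty acid synthesis and 2 for regulators, against 0 each at 1.5-fold. For efflux and transport the list mean was 0.16 against a median of -0.13, since Stard4 is 1 of 3 genes, and its count of 1 was 0 with 32 added and 0 at 2-fold. Adding 32 gave differences of 0.57 for Stard4, -0.21 for Insig2 and -0.18 for Nr1h3. Stard4, the 1 gene past 1.5-fold, kept its sign, but differences close to 0 changed theirs under quantile normalization (Srebf2 and Insig1) and lowess (Srebf2). One array per group limits the precision of every value. Every measured lipid gene but Stard4 lay within the central 95% of all genes above background, -0.66 to 0.63.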
